A study of Mus musculus with 17 samples.

Results

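The protocadherins are a family of cadherin-like adhesion proteins, chosen here with earlier results of these data known. They comprise every gene of the count tables whose symbol starts with Pcdh, which selected 71 of 23284 genes by symbol alone. Of these, 15 belong to the Pcdha cluster, 22 to Pcdhb, 22 to Pcdhg and 12 are non-clustered genes that stand alone in the genome. They were measured by RNA sequencing in 17 mouse tumours labelled as neuroendocrine pituitary tumours, and the stated question was which genes Crebbp, a histone acetyltransferase, regulates in them. All 17 tumours carried engineered alleles of Rb1 and Trp53. In addition, 8 tumours carried engineered Crebbp alleles and are called Crebbp-labelled here, while the 9 tumours without them are called Rb1/Trp53-labelled. The sources used here do not give the promoter that drove recombination, the age or sex of the animals, or whether each tumour came from a separate mouse, and p-values therefore measure the spread between these samples, which may be technical.

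Each clustered protocadherin gene has its own promoter and first exon. In Pcdha and Pcdhg the first exons are joined to a shared set of constant exons, whereas each Pcdhb gene is a single-exon gene. In neurons a small, largely random choice among these promoters, which depends on CTCF, cohesin and DNA methylation, gives each cell its own surface identity, and matching isoforms on another membrane bind one another. A few C-type isoforms at the ends of the Pcdha and Pcdhg clusters (Pcdhac1, Pcdhac2, Pcdhgc3, Pcdhgc4 and Pcdhgc5) are used more broadly and less randomly. The non-clustered delta-protocadherins act in cell sorting, axon growth and synapse formation, and several of them recruit the actin-regulating WAVE complex to the membrane.

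The libraries were of 2 kinds, defined here from the counts of 2 genes. Pomc, the precursor of ACTH and melanocyte-stimulating hormone, exceeded Calca, which encodes calcitonin and CGRP, in 10 libraries (Pomc-high: 6 Rb1/Trp53-labelled and 4 Crebbp-labelled), and Calca exceeded Pomc in the other 7 (Calca-high: 3 and 4). In the Calca-high libraries Pomc was 3.58 to 64.4 CPM (reads of a gene scaled to a common library total, with TMM factors over all libraries), the summed level of 6 anterior lobe hormone genes was at most 0.184 CPM, and that of 5 thyroid follicular cell genes was 928 to 16923 CPM, so the pituitary label was not borne out by its defining markers there. Totals on genes were 20361712 to 28140755 in the Calca-high Rb1/Trp53-labelled libraries and 8328297 to 15490074 in the Calca-high Crebbp-labelled ones, against 8741091 to 19994394 in the Pomc-high ones. Summed over its whole gene, Crebbp was 48.4 to 55.8 CPM in the Calca-high Rb1/Trp53-labelled and 67.4 to 93.3 CPM in the Calca-high Crebbp-labelled libraries, higher in all 4 (log2 difference 0.60, adjusted p = 0.00723). In the Pomc-high libraries the ranges overlapped (39.6 to 115.6 against 42.7 to 62.0 CPM). A whole-gene count does not show whether an exon was removed, so it neither checks nor replaces the labels. In the Calca-high libraries the summed markers of several other cell types were lower with the Crebbp label: endothelium (10 genes) 92.5 to 108 against 47.7 to 64.9 CPM, macrophage (9 genes) 150 to 193 against 54.6 to 137 CPM, and thyroid follicular cells 2121 to 16923 against 928 to 1297 CPM. Fibroblast and pericyte markers (9 genes, 575 to 933 against 208 to 656 CPM) overlapped, and the 8 thyroid C cell markers, Calca among them, summed to 119680 to 178710 against 35421 to 68405 CPM. Summed neuronal markers (8 genes) were 14.2 to 18.9 against 17.7 to 20.6 CPM, and the astroglial sums overlapped. Such sums follow their most abundant genes. By gene, at an adjusted p under 0.05, 2 of 5 tested astroglial markers were lower and 0 higher. Also lower were 6 of 10 endothelial, 3 of 9 macrophage, 5 of 5 follicular and 6 of 8 C cell markers, and 0 higher. Among 9 fibroblast and pericyte markers, 1 was lower and 0 higher. Lung epithelium markers (4 genes) summed to 67.5 to 168 against 44.6 to 70.3 CPM, and 2 were lower and 1 higher. Of 4 tested neuronal markers, 2 were higher and 1 lower, where 19.1% of all genes were higher and 17.1% lower. Less RNA per cell and fewer cells of a type cannot be told apart in bulk samples, and the part of other cell types in the results was not tested.

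Of the 12 non-clustered genes, 9 matched the RefSeq promoter table for GRCm38.p6, which gives 250 bases before and 50 after each transcription start. The upstream 250 bases are shown for the 4 non-clustered members that differed most between the genotypes, because promoter CpG content and promoter methylation are the features by which this family is often described. Capitals mark CpG dinucleotides, and each sequence is written 5′ to 3′ on the strand of its gene.
Pcdh10, chr3:45378148-45378397, plus strand: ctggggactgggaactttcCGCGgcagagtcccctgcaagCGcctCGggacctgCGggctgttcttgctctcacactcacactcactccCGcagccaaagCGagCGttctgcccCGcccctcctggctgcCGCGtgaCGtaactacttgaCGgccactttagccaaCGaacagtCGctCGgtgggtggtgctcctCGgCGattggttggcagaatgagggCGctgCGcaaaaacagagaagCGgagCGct
Pcdh17, chr14:84443313-84443562, plus strand: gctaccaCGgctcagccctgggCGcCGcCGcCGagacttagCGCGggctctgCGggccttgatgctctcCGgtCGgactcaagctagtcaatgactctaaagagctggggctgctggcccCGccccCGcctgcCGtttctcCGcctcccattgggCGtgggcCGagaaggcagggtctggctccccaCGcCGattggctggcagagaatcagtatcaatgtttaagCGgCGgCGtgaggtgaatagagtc
Pcdh9, chr14:93890680-93890929, minus strand: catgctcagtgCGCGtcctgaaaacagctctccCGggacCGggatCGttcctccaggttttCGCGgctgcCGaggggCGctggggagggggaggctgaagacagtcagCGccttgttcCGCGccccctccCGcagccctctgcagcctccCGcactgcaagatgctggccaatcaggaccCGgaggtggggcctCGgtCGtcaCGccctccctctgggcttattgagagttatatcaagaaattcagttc
Pcdh8, chr14:79771313-79771562, minus strand: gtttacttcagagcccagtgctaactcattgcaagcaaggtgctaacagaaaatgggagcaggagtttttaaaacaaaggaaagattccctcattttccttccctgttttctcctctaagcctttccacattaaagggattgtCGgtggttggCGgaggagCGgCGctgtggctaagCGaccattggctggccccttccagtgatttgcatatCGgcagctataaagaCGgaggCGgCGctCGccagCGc
The Pcdh10 window holds 22 CpGs, the Pcdh17 window 21 and the Pcdh9 window 18, against a median of 6 over 32851 promoter windows. Among all windows, 14.8% have at least as many as Pcdh10, 16.3% as many as Pcdh17 and 21.7% as many as Pcdh9. The Pcdh8 window, with 11, is nearer the middle, since 35.6% of windows have as many. Pcdh19, which also passed in the Calca-high tumours, has 16. Among the members with a window that did not pass with edgeR, Pcdh18 has 23, Pcdh7 has 7, Pcdh15 has 6 and Pcdh20 has 3, so that Pcdh18 lies above and the other 3 below all 5 members that passed. The consensus core of the CTCF motif, searched on both strands of the full 300 bases, occurred in 1 of the 9 genes (Pcdh15) and in 8.61% of all windows. Methylation was not measured in these samples, and these coordinates belong to the RefSeq build, not to the mm9 build named for the counts.

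In the Calca-high tumours, some protocadherins of each of the 4 groups were higher in the Crebbp-labelled libraries, and none passed as lower. The largest differences were in the non-clustered delta-protocadherins Pcdh10, Pcdh17 and Pcdh9 and in the clustered Pcdhb2. In the Rb1/Trp53-labelled libraries Pcdh10 had 4 to 9 reads, Pcdhb2 5 to 18, Pcdh17 15 to 31 and Pcdh9 22 to 30. Of 68 members tested, 23 passed (33.8%), all 23 as higher; among all 14797 genes tested, 36.2% passed, 19.1% as higher and 17.1% as lower. The share of members called was thus close to that of all genes, and the direction was not: the median log2 fold change of the members was 0.70, against -0.02 over all genes tested. Without overlap between the genotypes, 25 of the 68 members were higher and 0 were lower, where 21.8% and 22.6% of all genes were. The count of calls by group was 5 of 11 non-clustered, 5 of 13 Pcdha, 10 of 22 Pcdhb and 3 of 22 Pcdhg genes. The Pcdhg share, 13.6%, was below the 19.1% of all genes that passed as higher. Tests were edgeR quasi-likelihood with Benjamini-Hochberg adjustment over all genes, and log2 fold changes are Crebbp-labelled over Rb1/Trp53-labelled. Of the 23 calls, Pcdh10, Pcdhb2, Pcdhb21, Pcdha7 and Pcdhac1 met the low-count filter only through the Crebbp-labelled libraries. Their Rb1/Trp53-labelled values all lay below the filter, so these members could pass only as higher.

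Pcdh10, which binds the WAVE complex and guides axon growth, was counted at 0.184, 0.266 and 0.453 CPM (4, 7 and 9 reads) in the 3 Rb1/Trp53-labelled Calca-high tumours. The 4 Crebbp-labelled tumours gave 8.45, 6.75, 9.27 and 13.8 CPM, or 80 to 233 reads. All 4 were far above all 3, a log2 difference of 4.996 ± 0.412 (SE; adjusted p = 6.67e-04), which was the largest among the members. Pcdh17, a regulator of presynaptic vesicle assembly, was 0.689, 1.18 and 0.805 CPM without and 8.77, 7.67, 12.5 and 13.1 CPM with the Crebbp label (log2 3.56 ± 0.32, adjusted p = 7.81e-04). Here too the groups lay well apart, and each was tight within itself. Pcdh9, a delta-protocadherin expressed widely in the brain, was 1.06, 1.14 and 1.11 CPM against 10.6, 10.2, 15.98 and 4.32 CPM (log2 3.23 ± 0.44, adjusted p = 0.00206). The Rb1/Trp53-labelled values were nearly equal, and tumour T4 was the lowest of the Crebbp-labelled group while still above them.

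Pcdh8, known as arcadlin or paraxial protocadherin, which controls N-cadherin at synapses, was 0.827, 3.31 and 2.37 CPM against 7.82, 7.91, 12.8 and 4.03 CPM (log2 1.92 ± 0.53, adjusted p = 0.0245). The groups did not overlap, but the spread was wide, and the adjusted p was 0.0519 without Rb1/Trp53 T4 and 0.0616 without Crebbp-labelled T3. Pcdh19, the gene of an X-linked epilepsy, was 1.84, 1.98 and 2.37 CPM against 4.97, 3.56, 2.43 and 6.39 CPM (log2 1.09 ± 0.36, adjusted p = 0.0444). Its lowest Crebbp-labelled value barely cleared the highest of the others, and the call was lost in 6 of 7 fits that left out 1 library, where the adjusted p reached 0.119.

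The other non-clustered members did not pass in the Calca-high tumours with edgeR, and DESeq2 called 1 of them, Pcdh1. Pcdh1, an epithelial protocadherin and the most abundant of this group there, was 20.9 to 33.2 CPM without and 29.5 to 52.7 CPM with the Crebbp label (log2 0.61, adjusted p = 0.0686). Pcdh15, a component of the hair-cell tip link, ranged from 1.71 to 4.18 against 0.951 to 3.56 CPM. Pcdh18 (3.12 to 7.30 against 2.02 to 5.68 CPM), Pcdh7 (0.805 to 1.10 against 0.447 to 1.07 CPM) and Pcdh12 (0.906 to 1.15 against 0.888 to 1.04 CPM) overlapped between genotypes. Pcdh12 is known as an endothelial protocadherin, and the part of endothelial content in its values was not tested. Pcdh20 was at most 1.24 CPM, and Pcdh11x had 0 or 1 read in each Calca-high library and was not tested.

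**Figure D1:**
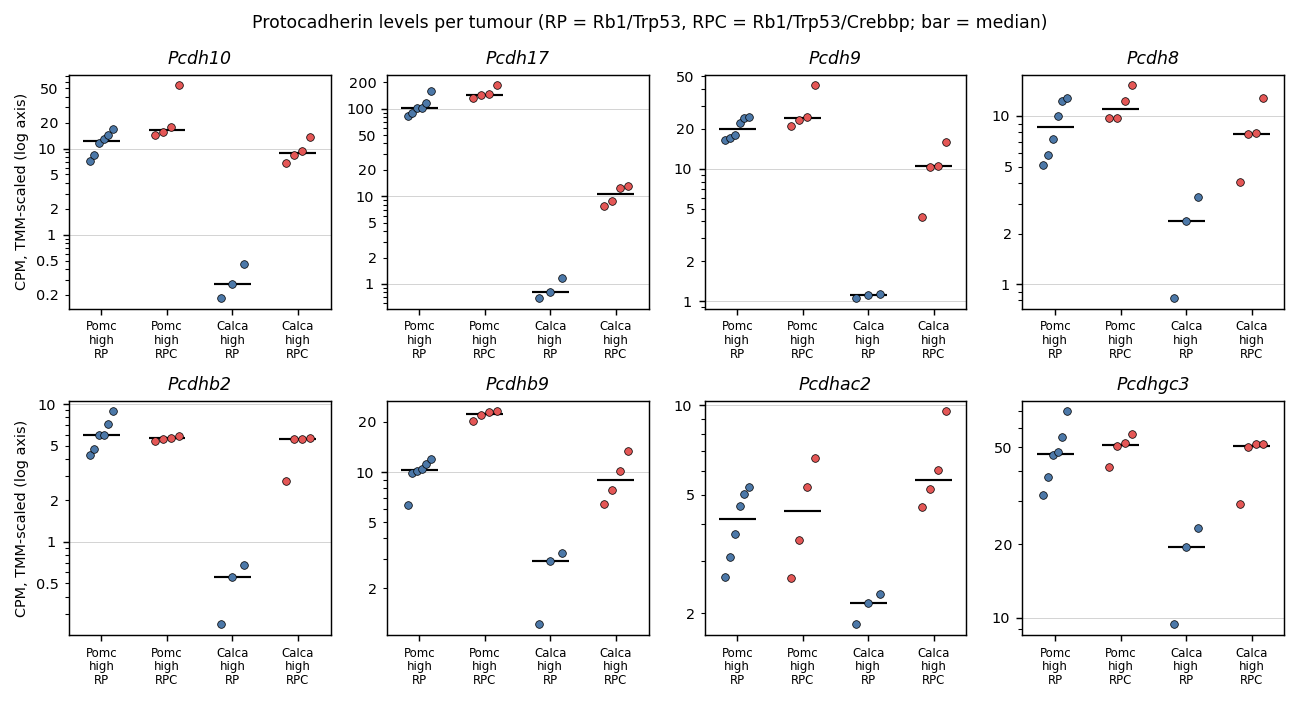
Level of 8 protocadherins in each tumour, as TMM-scaled CPM on a log axis, with 1 point per library and a bar at each group's median (RP, Rb1/Trp53-labelled; RPC, Crebbp-labelled). The Pcdh10, Pcdh17, Pcdh9 and Pcdhb2 points of the 3 Calca-high Rb1/Trp53-labelled tumours sit at 0.184 to 1.18 CPM, below all other points of those genes.

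Among the clustered genes in the Calca-high tumours, all 5 C-type isoforms rose with edgeR, where 19.1% of all genes rose. Pcdhgc3, the Pcdhg isoform with the highest counts, was 23.4, 19.6 and 9.41 CPM without and 29.2, 51.3, 50.2 and 51.5 CPM with the Crebbp label (log2 1.40 ± 0.33, adjusted p = 0.0156). Pcdhgc4, an isoform required for the survival of some neurons, was 17.3, 13.8 and 11.7 against 19.4, 32.2, 36.8 and 37.2 CPM (log2 1.16 ± 0.24, adjusted p = 0.00868). For both genes the groups did not overlap, and tumour T1 was the lowest of the Crebbp-labelled group. Pcdhac2, needed for the tiling of serotonergic axons, was 1.84, 2.32 and 2.16 against 4.54, 5.22, 9.52 and 6.04 CPM (log2 1.60 ± 0.31, adjusted p = 0.00631). Pcdhgc5 (2.89 to 4.13 against 5.24 to 7.11 CPM) and Pcdhac1 (0.367 to 0.647 against 0.740 to 1.35 CPM) also did not overlap, with adjusted p of 0.0387 and 0.0451. Those calls were lost in 5 and 6 of the 7 fits without 1 library, with adjusted p of up to 0.128 and 0.134, and DESeq2 did not call Pcdhac1. None of the other 19 Pcdhg genes passed in the Calca-high fit, so the 3 Pcdhg calls were the 3 C-type isoforms. Of the 19, 2 had an unadjusted p under 0.05, where 6972 of all 14797 genes did, and DESeq2 called Pcdhga5 and Pcdhgb1.

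Pcdhb had the most calls of the 3 clusters. Pcdhb2 was 0.551, 0.685 and 0.252 CPM in the Rb1/Trp53-labelled and 2.75, 5.71, 5.56 and 5.63 CPM in the Crebbp-labelled Calca-high tumours (log2 3.29 ± 0.44, adjusted p = 0.00188). Tumour T1 was again the lowest of the Crebbp-labelled group, at a level still above all 3 others. Pcdhb9 was 3.26, 1.22 and 2.92 against 6.45, 7.85, 13.4 and 10.1 CPM (log2 1.97 ± 0.40, adjusted p = 0.0077), and Pcdhb5 was 3.58, 4.49 and 5.34 against 9.09, 16.4, 15.5 and 12.6 CPM (log2 1.60 ± 0.25, adjusted p = 0.00283). Both were separated without overlap. Pcdhb1, Pcdhb3, Pcdhb7, Pcdhb13, Pcdhb15, Pcdhb16 and Pcdhb21 rose by log2 0.74 to 1.56. A positive fold change was found in 21 of the 22 Pcdhb genes, the exception being Pcdhb18 at -0.02. Among all 14797 genes tested, 7173 had a positive fold change. The Pcdhb genes are close in sequence and, like the other clustered genes, could share reads. The treatment of such reads was not given in the sources used here, and single Pcdhb values are uncertain to that extent.

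The other Pcdha calls, those of Pcdha2, Pcdha7 and Pcdha5, each depended on which libraries were included. Pcdha2 was 3.35, 2.05 and 3.62 against 4.97, 11.3, 26.3 and 12.02 CPM (log2 2.21 ± 0.53, adjusted p = 0.0157). All 4 Crebbp-labelled values were higher, with a wide spread among them, and the adjusted p was 0.0583 without Rb1/Trp53 T3. Pcdha7 was 0.302 to 0.505 against 1.06, 0.859, 4.60 and 0.711 CPM. Its log2 fold change of 2.24 (adjusted p = 0.0484) fell to 1.17 (adjusted p = 0.0742) without tumour T3. Pcdha5 was 1.01 to 1.29 against 1.796 to 2.55 CPM without overlap (log2 0.86, adjusted p = 0.0444). It passed in 0 of the 7 fits without 1 library, where the adjusted p reached 0.116 and the log2 fold change stayed at 0.74 to 0.94. Over all 23 calls, 11 were kept in each of those 7 fits: Pcdh10, Pcdh17, Pcdh9, Pcdhac2, Pcdhb1, Pcdhb2, Pcdhb3, Pcdhb5, Pcdhb9, Pcdhgc3 and Pcdhgc4. The number of members called was 12 without Rb1/Trp53 T3, 14 without Crebbp-labelled T3 and 15 without Crebbp-labelled T4, and 16 to 21 without any other library.

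**Figure D2:**
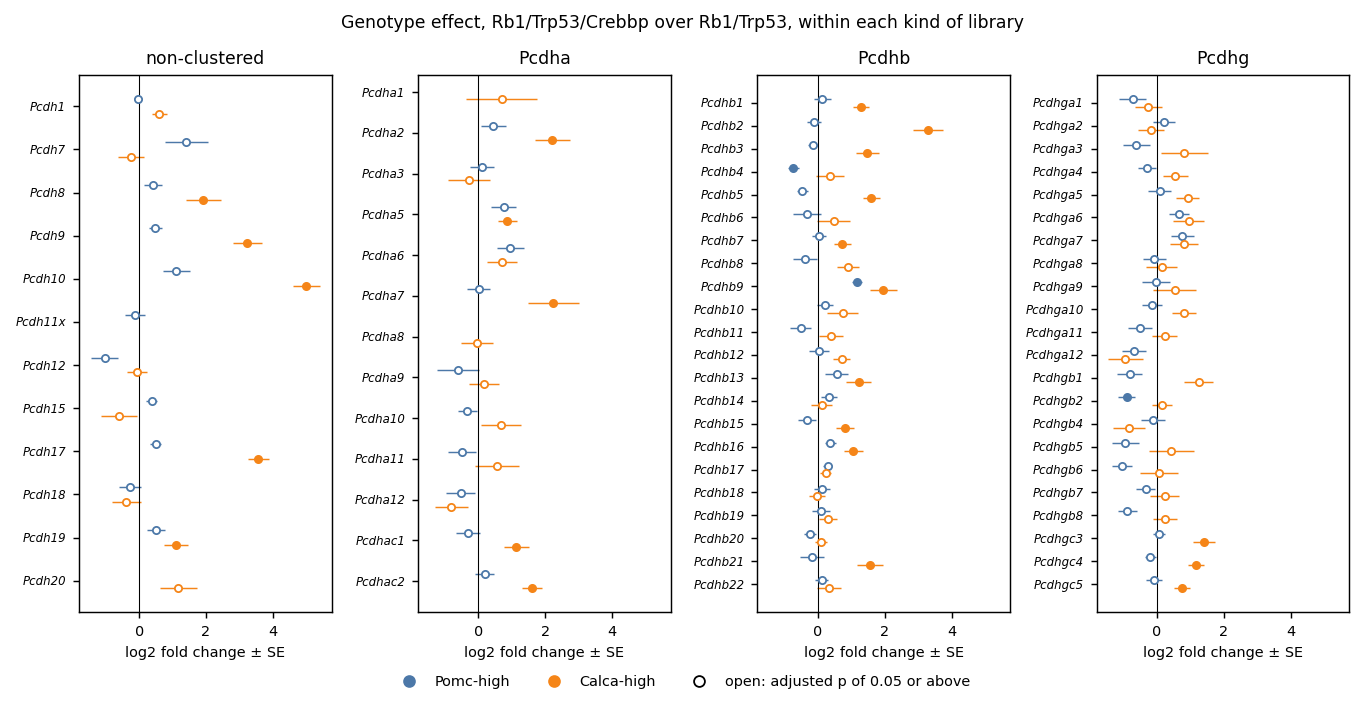
Log2 fold change of each tested protocadherin (Crebbp-labelled over Rb1/Trp53-labelled) with its SE, by kind of library; filled points have an adjusted p under 0.05. The 23 filled Calca-high points all lie above 0, up to 4.996 for Pcdh10, and the 3 filled Pomc-high points are Pcdhb9 above 0 and Pcdhb4 and Pcdhgb2 below it.

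In the Pomc-high tumours few members of the family passed in the test between the genotypes. Of 66 members tested, 3 passed (4.55%), against 8.42% of the 14010 genes tested; 1 rose (3.15% of all genes did) and 2 fell (5.26% of all genes). The median log2 fold change of the members was -0.09, and of all genes tested 0.01. At an unadjusted p under 0.05 there were 17 of 66 members and 3561 of all 14010 genes, which are similar shares. DESeq2 called 7 members, a count given without the share of all genes that DESeq2 called.

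Pcdhb9 was the member that stood out in these tumours. The 6 Rb1/Trp53-labelled tumours ranged from 6.31 to 11.99 CPM with a median of 10.3, and the 4 Crebbp-labelled tumours gave 21.9, 20.4, 23.1 and 23.1 CPM. No Rb1/Trp53-labelled tumour came near the Crebbp-labelled ones, which were almost equal to each other (log2 1.16 ± 0.15, adjusted p = 6.57e-04), and the call was kept in all 10 fits that left out 1 library. With edgeR, Pcdhb9 was the only member to pass in both kinds of library, while DESeq2 called Pcdh10, Pcdh17 and Pcdhb9 in both. Pcdhb9 supplied the largest share of Pcdhb counts, 11.6% to 13.5%, in all 4 Crebbp-labelled Pomc-high tumours. In no other tumour did it lead Pcdhb.

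Pcdhb4 ranged from 9.12 to 15.3 CPM (median 12.4) in the Rb1/Trp53-labelled and was 8.20, 7.43, 6.81 and 6.73 CPM in the Crebbp-labelled Pomc-high tumours. The Crebbp-labelled values were all lower (log2 -0.73 ± 0.17, adjusted p = 0.0192), and the adjusted p was 0.057 without Crebbp-labelled T7. Pcdhgb2 ranged from 4.59 to 6.49 CPM (median 5.55) against 1.89, 3.38, 2.09 and 3.97 CPM (log2 -0.90 ± 0.25, adjusted p = 0.0381). The groups did not overlap, but the call was lost in 6 of the 10 fits without 1 library, with an adjusted p of up to 0.103. Without overlap between genotypes, 1 member was higher and 3 were lower, or 1 and 3 of 66, where 3.90% and 5.87% of all genes were.

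None of the 11 tested non-clustered members passed in the Pomc-high tumours with edgeR. Of the 11, 5 had an unadjusted p under 0.05, where 3561 of all 14010 genes did, and DESeq2 called Pcdh10 and Pcdh17. Pcdh17 ranged from 83.3 to 161 CPM (median 103) in the Rb1/Trp53-labelled tumours and was 133, 147, 142 and 185 CPM in the others (log2 0.50 ± 0.16, adjusted p = 0.0774). The ranges overlapped through Rb1/Trp53 T2, the highest of its group, and without that library Pcdh17 passed (log2 0.64, adjusted p = 0.00898). Pcdh10 ranged from 7.25 to 17.1 CPM (median 12.3) against 14.3, 17.6, 15.5 and 54.4 CPM (log2 1.11 ± 0.40, adjusted p = 0.111). Its highest value belonged to Crebbp-labelled T8, and the log2 fold change was 0.43 without that tumour.

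Crebbp-labelled T8 stood apart in other ways. It had 20.2 CPM of Pcdh7, a protocadherin of brain and heart, where the other 3 tumours of its group had 2.13 to 2.21 CPM; it had 7.70 CPM of Pcdh20, which was too low in the other Pomc-high tumours to be tested, against 0.631 to 0.956 CPM, and 42.7 CPM of Pcdh9 against 21.0 to 24.7 CPM. The Pcdh7 log2 fold change of 1.41 (adjusted p = 0.205) became -0.19 without it. In the same tumour the summed oligodendrocyte markers (6 genes) were 753 CPM, the astroglial ones (8 genes) 969 CPM and the neuronal ones (8 genes) 334 CPM, each the highest of the Pomc-high libraries, where the others had at most 114, 208 and 205 CPM. Their part in these values was not tested. Pcdh19 ranged from 9.41 to 19.0 CPM (median 14.5) against 14.2 to 32.2 CPM, Pcdh8 from 5.10 to 12.9 against 9.66 to 15.2 CPM, Pcdh15 from 18.1 to 36.1 against 27.8 to 37.2 CPM and Pcdh18 from 23.0 to 60.4 against 13.2 to 45.4 CPM. Pcdh1 (25.9 to 41.8 against 27.7 to 35.5 CPM), Pcdh11x (3.33 to 11.7 against 4.52 to 6.65 CPM) and Pcdh12 (0.744 to 1.98 against 0.368 to 0.892 CPM) overlapped as well. Summed endothelial markers were 54.3 to 84.8 against 34.4 to 73.7 CPM in these tumours, and their part in the Pcdh12 values was not tested.

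Because an effect past the threshold in only one kind of library is not thereby shown to differ, the difference between the genotype effects was tested. It passed in 14 of 69 members (20.3%), all with the higher effect in the Calca-high libraries. Over all 15432 genes tested 22.9% passed, 12.8% in that direction. By group these were 3 of 12 non-clustered (Pcdh10, Pcdh17 and Pcdh9), 2 of 13 Pcdha (Pcdha7 and Pcdhac2), 6 of 22 Pcdhb (Pcdhb1, Pcdhb2, Pcdhb3, Pcdhb5, Pcdhb15 and Pcdhb21) and 3 of 22 Pcdhg genes (Pcdhgb1, Pcdhgc3 and Pcdhgc4). The log2 effect of Pcdh17 was 0.50 among Pomc-high and 3.56 among Calca-high tumours, a difference of 3.06 (adjusted p = 7.61e-05). The effects of Pcdhb2 were -0.12 and 3.29, a difference of 3.42 (adjusted p = 1.73e-04), and those of Pcdh10 were 1.11 and 4.996, a difference of 3.89 (adjusted p = 0.00147). Pcdhb9, up in both, gave a difference of 0.82 that did not pass (adjusted p = 0.124). Leaving out 1 library in turn kept 8 of the 14 in all 17 fits, among them Pcdh10, Pcdh17, Pcdh9 and Pcdhb2.

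With all 17 libraries in 1 contrast and no account of their kind, 0 of 67 members passed in edgeR, where 3.86% of all genes did, 1.81% as higher and 2.05% as lower. At an unadjusted p under 0.05 there were 9 of 67 members, against 3126 of all 14338 genes. DESeq2 called 2 members, Pcdha2 (log2 1.37) and Pcdha5 (log2 0.79). With the kind of library as a term, 8 of 67 members rose and 0 fell, where 8.22% of all genes rose and 9.74% fell. The 8 were Pcdhb9, Pcdh10, Pcdh17, Pcdhb16, Pcdh9, Pcdha5, Pcdh19 and Pcdha6, with log2 fold changes of 0.64 for Pcdhb16 to 2.26 for Pcdh10.

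**Figure D3:**
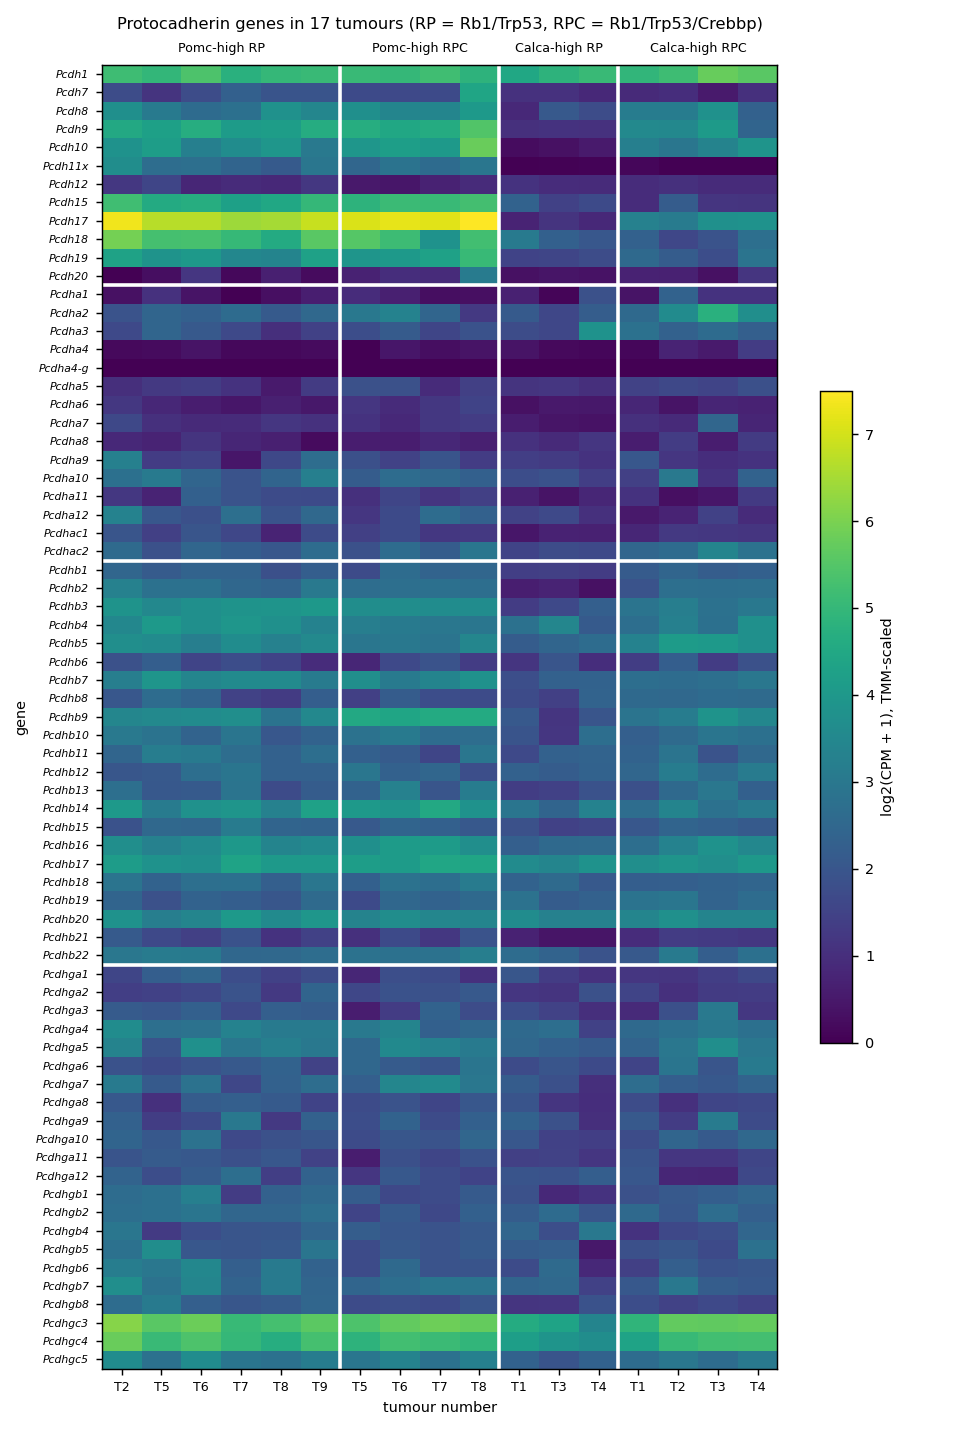
Level of all 71 protocadherins in the 17 tumours as log2(CPM + 1), with genes in rows by group and tumours in columns by kind of library and genotype label. The non-clustered block is the one that differs most by kind: Pcdh17 was 83.3 to 185 CPM in the Pomc-high and 0.689 to 13.1 CPM in the Calca-high tumours.

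The levels differed widely between the 2 kinds of library, which is a description only, because the kinds were made from these counts. Pcdh17 led the non-clustered counts in all 10 Pomc-high tumours and Pcdh1 in all 7 Calca-high tumours. Pcdh15 was 18.1 to 37.2 CPM in the Pomc-high and 0.951 to 4.18 CPM in the Calca-high tumours, and Pcdh11x, an X-linked delta-protocadherin, was 3.33 to 11.7 CPM against 0 to 0.106 CPM. Summed over the 12 non-clustered genes, the mean level was 273 ± 58.7 CPM (SD, n = 6) in the Rb1/Trp53-labelled and 349 ± 78.7 CPM (n = 4) in the Crebbp-labelled Pomc-high tumours. In the Calca-high tumours it was 43.7 ± 4.09 CPM (n = 3) and 91.8 ± 16.2 CPM (n = 4). Even with the higher level under the Crebbp label, every Calca-high tumour was below every Pomc-high one.

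The clustered sums were closer across the 4 groups. Summed Pcdhb was 164.6 ± 16.8 and 174 ± 8.76 CPM in the Pomc-high tumours, and 86.3 ± 5.01 and 140.4 ± 20.9 CPM in the Calca-high ones, Rb1/Trp53-labelled first (SD, n as above). Summed Pcdhg was 179 ± 38.6, 159 ± 20.9, 85.6 ± 20.4 and 147 ± 27.7 CPM in the same order, and summed Pcdha was 32.7 ± 7.37, 31.4 ± 3.75, 21.7 ± 7.12 and 40.7 ± 11.8 CPM. For Pcdhb and Pcdhg the 3 Calca-high Rb1/Trp53-labelled tumours were the lowest of all 17, and no test was run on these sums.

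**Figure D4:**
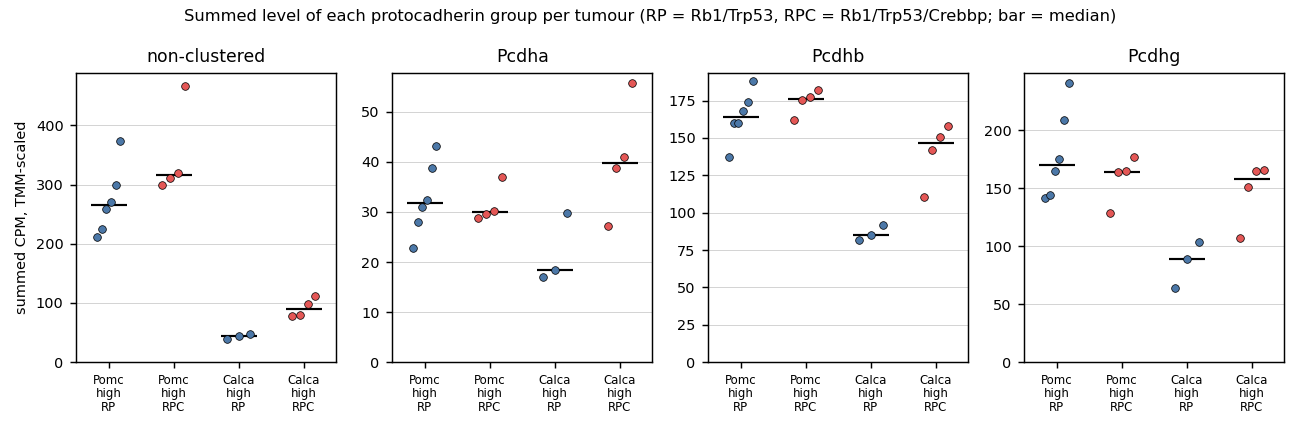
Summed TMM-scaled CPM of the 12 non-clustered, 15 Pcdha, 22 Pcdhb and 22 Pcdhg genes, 1 point per tumour and a bar at the median (RP, Rb1/Trp53-labelled; RPC, Crebbp-labelled). The non-clustered sums are 39.5 to 111 CPM in the Calca-high and 212 to 467 CPM in the Pomc-high tumours, while the Pcdhb sums of the Calca-high Crebbp-labelled tumours (111 to 158 CPM) reach into the Pomc-high range.

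Levels of different genes can be compared only per length. Divided by the exon length that a gene does not share with another Pcdh gene (GENCODE M21), the median level in the Pomc-high tumours was highest for Pcdhgc3 at 14.5 CPM per kilobase, then for Pcdh17 at 9.59, Pcdhgc4 at 9.56 and Pcdh18 at 6.97. In the Calca-high tumours Pcdhgc3 (8.63 CPM per kilobase), Pcdhgc4 (5.59) and Pcdh1 (3.78) led, and Pcdh17 (0.59) and Pcdh18 (0.72) were far down the order. The same 2 C-type isoforms thus led the clustered genes in both kinds of library. Since the constant exons of Pcdha and Pcdhg belong to many genes at once, reads there may have been counted for none of them, and ambiguous reads made up 0.56% to 0.843% of each table.

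The tumours also differed in which Pcdha isoforms they used. In Crebbp-labelled T3, a Calca-high tumour, Pcdha2 made up 47.1% of 873 Pcdha reads (95% exact binomial interval 43.7% to 50.5%, counting error only). In Rb1/Trp53 T4, also Calca-high, Pcdha3 made up 44.3% of 594 (40.2% to 48.4%), at 13.2 CPM where the other tumours of its group had 2.34 and 2.05 CPM. In the other 15 tumours the leading isoform held 14.1% to 31.0%, and different isoforms led: Pcdha10, Pcdha12, Pcdha2, Pcdha3 or Pcdhac2. In Pcdhb the leading gene never held more than 14.4% of the reads, so no single Pcdhb gene dominated any tumour. In Pcdhg it was Pcdhgc3 in 16 of 17 tumours, with Pcdhgc4 in the other. The spread between tumours was set against the trend of all genes at the same level. In the Calca-high fit, 46.2% of the Pcdha and 59.1% of the Pcdhg genes had a dispersion above the trend, against 18.2% of the Pcdhb genes and 21.4% of all genes. In the Pomc-high fit these shares were 36.4%, 45.5%, 13.6% and 25.5%. Of the non-clustered genes, 45.5% lay above the trend in the Calca-high fit and 81.8% in the Pomc-high fit. A high spread was thus not particular to Pcdha and Pcdhg. These are descriptions, with no test.

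**Figure D5:**
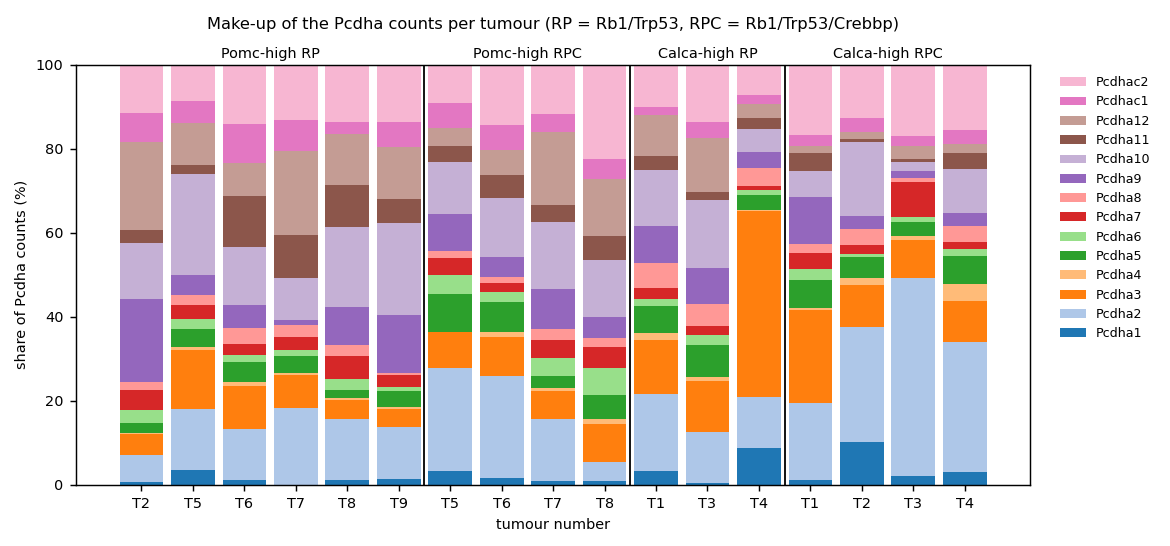
Share of each tumour's Pcdha reads that came from each Pcdha gene, in percent, as stacked bars with tumours grouped by kind of library and genotype label. The widest single segments are Pcdha2 in Crebbp-labelled T3 (47.1%) and Pcdha3 in Rb1/Trp53 T4 (44.3%).

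Of 20 regulators of protocadherin promoter choice (CTCF, the cohesin complex and its loaders and unloaders, and DNA and histone methyltransferases), 13 rose and 1 fell in the Calca-high tumours, where 19.1% of all genes rose and 17.1% fell, and DESeq2 called 14 and 1. The median log2 fold change of the list was 0.39, against -0.02 over all genes. Pds5a, a cohesin regulator, was 34.3 to 42.4 CPM without and 74.4 to 91.8 CPM with the Crebbp label (log2 1.17, adjusted p = 8.99e-04). Wapal, which releases cohesin, was 39.1 to 46.3 against 76.0 to 94.2 CPM (log2 1.01, adjusted p = 0.00115). Dnmt1, the maintenance DNA methyltransferase, was 206 to 265 against 374 to 455 CPM (log2 0.80, adjusted p = 0.00234), and Wiz, a partner of the G9a histone methyltransferase, fell by 0.71 on the log2 scale (adjusted p = 0.00234). None of these ranges overlapped. Ctcf itself was 66.3 to 95.7 against 98.5 to 106 CPM and did not pass (log2 0.29, adjusted p = 0.123). In the Pomc-high tumours 0 of the 20 passed in edgeR, where 8.42% of all genes did, and DESeq2 called 0. Of the 20, 2 had an unadjusted p under 0.05, where 3561 of all 14010 genes did.

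The intracellular side of the pathway was covered by separate lists. Of 9 tested WAVE complex genes, the effectors recruited by delta-protocadherins, 5 rose and 0 fell in the Calca-high tumours. The 5 were Abi2 (log2 0.64), Wasf2 (0.78), Nckap1 (0.60), Wasf3 (0.81) and Cyfip2 (0.63). Of all genes, 19.1% rose in that fit. Abi2, a scaffold of the complex, also rose in the Pomc-high tumours, from 40.5 to 61.5 CPM without to 63.9 to 85.7 CPM with the Crebbp label (log2 0.48, adjusted p = 0.0232), and it was the only one of the 9 to pass there with edgeR, where 8.42% of all genes passed. DESeq2 called 2 of the 9. Of 13 kinases, adhesion partners and proteases that act with or on protocadherins, 4 rose in the Calca-high tumours, among them the kinases Ptk2b (log2 0.52) and Fyn (log2 0.34), and 2 fell, the gamma-secretase subunits Psenen (log2 -0.76) and Psen2 (log2 -0.54). These are 30.8% and 15.4% of the list, near the 19.1% and 17.1% of all genes, and DESeq2 called 5 higher and 4 lower. Psen2 fell in the Pomc-high tumours too (log2 -0.50, adjusted p = 0.0186).

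Other large cadherins served as a comparison within the superfamily. In the Calca-high tumours 7 of 15 tested rose and 1 fell, with edgeR and with DESeq2, where 19.1% and 17.1% of all genes did. The median log2 fold change was 0.49. Fat3, a giant cadherin of neuronal shape, was 0.138 to 0.304 CPM without and 2.49 to 7.82 CPM with the Crebbp label (log2 4.24, adjusted p = 0.00172), a difference of the same order as those of Pcdh10 and Pcdh17. Celsr3, a planar polarity cadherin of axon tracts, was 153 to 178 against 244 to 291 CPM (log2 0.74, adjusted p = 0.00187), and Celsr2 rose by log2 0.53. Like Pcdh10, Fat3 met the low-count filter only through the Crebbp-labelled libraries. Fat2 fell by 1.97 on the log2 scale (adjusted p = 0.00972). In the Pomc-high tumours 0 of 12 passed in edgeR, where 8.42% of all genes did, and DESeq2 called 0. Of the 12, 1 had an unadjusted p under 0.05, where 3561 of all 14010 genes did.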

How the data were processed

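RNA from 17 tumours was extracted with TRIzol, selected with oligo-dT beads and made into libraries with a NEBNext Ultra kit, per the labels' protocols. For each tumour the authors deposited raw read counts of 23284 genes, plus 5 summary rows left out here (reads in no feature 11.7% to 21.7%, not unique 8.20% to 18.5%, ambiguous 0.56% to 0.843%). The submitters' processing notes name bcl2fastq 1.8.2, TopHat2 2.0.12, HTSeq 0.6.1 and mm9. The annotation, the strand setting and the treatment of overlapping genes were not given in the sources used here. No pair of tables within a genotype agreed within sampling noise (64 pairs, chi-square per degree of freedom at least 8.30).

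Members, gene lists and marker lists were chosen with earlier results of these data known. Genotypes were compared with edgeR 4.0.16 under R 4.3.3 (filterByExpr by genotype, TMM, robust quasi-likelihood test), within the Pomc-high and Calca-high libraries, over all libraries, and for the interaction of genotype and kind. Adjusted p-values (Benjamini-Hochberg over all tested genes) under 0.05 count as passing. SE values were taken as log2 fold change over the square root of F. CPM used TMM factors over all 17 libraries, so a level of 1 CPM rests on few reads in the shallowest library. The test was checked on simulated data. Named are members past the threshold in any genotype contrast, all non-clustered members, the 2 most abundant of each cluster and up to 4 passing genes per list; other clustered genes are named where a count of 5 or fewer or a listed set includes them, after their values were seen. Alternatives were DESeq2 1.42.0, its size factors, no low-count filter, a replicate block, 1 fit of 4 groups, plain totals for summed levels and leaving out each library. Counts of DESeq2 calls are given without the share over all genes. A planned search of protein sequences was not run. Promoters came from RefSeq (GRCm38.p6), exon lengths from GENCODE M21, and figures were drawn with matplotlib 3.10.9. Intervals used scipy 1.17.1.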

Additional observations from a re-analysis of the deposited data

Results flagged for a closer look

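Over 111 groups of 4 to 6 tumours, 12 values lay far from the rest of their group. The rule flags about 1 in 20 groups by chance only if values are normally distributed, which was not checked. Some flagged values share a tumour, and a flagged sum contains flagged genes, so they are not independent. The values concerned come from the gene and group sums named in the report. Of the 12, 5 belong to Crebbp-labelled T8, a Pomc-high tumour: Pcdh10 at 54.4 CPM (others 14.3 to 17.6), Pcdh7 at 20.2 CPM, Pcdh20 at 7.70 CPM, Pcdh9 at 42.7 CPM and the summed non-clustered genes at 467 CPM (others 299.9 to 319). The same tumour had the highest summed oligodendrocyte, astroglial and neuronal markers of its kind.

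In the Calca-high Crebbp-labelled tumours, T1 was the lowest for Pcdhb2 at 2.75 CPM (others 5.56 to 5.71) and for Pcdhgc3 at 29.2 CPM (others 50.2 to 51.5), and it was the shallowest library. Pcdh11x at 0.106 CPM in T1 is a single read where the other 3 tumours had 0. Pcdh15 was highest in T2 at 3.56 CPM (others 0.951 to 1.21) and Pcdha7 in T3 at 4.60 CPM (others 0.711 to 1.06). In the Pomc-high Rb1/Trp53-labelled tumours, Pcdha7 was highest in T2 at 2.08 CPM (others 0.851 to 1.26), and Pcdhb9 was lowest in T8 at 6.31 CPM (others 9.91 to 11.99).

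The genotype effect differed between the 2 kinds of library, by the interaction test, in 14 members, and the effect was higher in the Calca-high libraries in each. The log2 differences between the effects were 3.89 for Pcdh10, 3.42 for Pcdhb2, 3.06 for Pcdh17, 2.75 for Pcdh9, 2.24 for Pcdha7, 2.07 for Pcdhb5 and 2.07 for Pcdhgb1. Smaller differences were found for Pcdhb21 (1.75), Pcdhb3 (1.65), Pcdhac2 (1.43), Pcdhgc4 (1.36), Pcdhgc3 (1.34), Pcdhb1 (1.16) and Pcdhb15 (1.15).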

How the results depend on the processing

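The direction of the Calca-high calls held under each alternative that was run, in that no fit called a member lower there, and their number did not hold. DESeq2 size factors, no low-count filter, DESeq2 and 1 fit of 4 groups gave 19 to 27 Calca-high calls. Leaving out 1 library gave 12 to 21 for the Calca-high tumours, 1 to 4 for the Pomc-high tumours, 0 to 2 over all libraries and 10 to 16 for the difference between the kinds. The Pomc-high count was 1 without Crebbp-labelled T7. DESeq2 called 7 members in the Pomc-high libraries (3 higher, 4 lower) and 2 over all libraries, and the kind of library as a term gave 8 over all libraries. Except for the kind term, the shares of all genes called under these alternatives and the replicate block are not given here. These counts were therefore not set against a background. Summed levels on plain totals moved by less than 1 SD.

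Replicate numbers are shared between the genotypes and were not used as pairs in the main fits. Same-numbered tumours gave correlations of deviations of 0.21, -0.06, -0.11 and -0.14 in the Pomc-high and 0.08, -0.07 and -0.17 in the Calca-high ones. Over all libraries they were 0.48 to 0.77, except -0.63 for number 2. Same-numbered tumours were of the same kind, except for number 2. So few values cannot exclude a pairing. With a replicate block, 9 members passed in the Calca-high fit, 3 in the Pomc-high fit, 0 over all libraries, and 7 for the difference (6 higher and 1 lower in the Calca-high libraries, the last being Pcdh15). With the block, Pcdh1 turned to 0.00045 and Pcdh11x to 0.27 in the Pomc-high libraries on the log2 scale.

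Some non-clustered members that did not pass changed sign when 1 library was left out. Clustered members that did not pass were not followed in these fits. The log2 fold change then ranged from -0.10 to 0.037 for Pcdh1, from -0.25 to 0.15 for Pcdh11x and from -0.19 to 1.70 for Pcdh7 in the Pomc-high libraries. Among Calca-high tumours it ranged from -0.14 to 0.041 for Pcdh12 and from -0.71 to 0.062 for Pcdh18. The cause was not tested. The Calca-high Crebbp-labelled libraries were the shallower ones, so members under 1 CPM rest on few reads there.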
